A study of Mus musculus with 3 samples.

Results

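Imprinted genes tied to stem cell quiescence were examined for CUT&Tag signal of Flag-tagged Bcl11a in mouse bone marrow LSK cells. They were H19, Igf2, Igf2r, Meg3, Dlk1, Ndn, Peg3, Mest, Grb10 and Plagl1, 10 of 49943 genes in the annotation used. Peaks were taken where they lay inside one of these genes or within 100 kb of either outer end (GRCm38.p6, the assembly behind mm10), and each was given to the member with the nearest end. This left 39, 42 and 58 peaks of libraries 1, 2 and 3, of 38731, 36459 and 43462 on the autosomes, X and Y. Joined by overlap of at least 1 bp they formed 80 regions. Those found in each library, 21 here and 22987 genome-wide, are called reproducible. The single group comprised 3 CUT&Tag libraries, a method in which an antibody steers a transposase to a chromatin protein so that nearby DNA is tagged. The mice carried Bcl11a, a transcriptional repressor of blood cells, with a 3xFlag tag knocked in N-terminally, while the genotype label of all 3 samples reads wildtype. LSK cells lack mature lineage markers, carry Sca-1 and Kit, and include the blood stem cells. Age, sex and the number of animals behind a library are not stated, so the SDs below measure only the spread between these libraries, which may be technical. No untagged or antibody-free library was analysed here, so tagged protein and open chromatin cannot be told apart at any region.

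An imprinted gene is expressed from one parental copy, and the choice is set by DNA methylation placed in the egg or sperm at a control region of the gene cluster. Zinc finger proteins such as ZFP57 and the insulator protein CTCF read these regions. Several genes of the list are highly expressed in long-term blood stem cells and are known for holding them out of cycle: H19 restrains Igf2 signalling through the receptor Igf1r, and the noncoding Meg3 locus restrains PI3K and mTOR signalling. No reference used here gives the coordinates of the control regions, so overlap with them was not tested.

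Promoter windows from RefSeq (GRCm38.p6) are shown first for Mest, Igf2 and Grb10, whose windows lay closest to a reproducible region among the members. The others are a CpG-rich member start without any peak, at Plagl1, and the neighbouring start under the strongest region. Windows at Dlk1 and a further Igf2 start, each touched by a peak of 1 library, are not shown. All windows shown hold a match of the letters below, while those of Igf2r, Peg3 and Ndn hold none. Each runs 5′ to 3′ on the gene's own strand from 250 bases before to 50 after the start. Capitals mark the letters TGACCA (BCL11A), TGCCGC (ZFP57), CCGGAAGT (ETS factors) or their reverse complements.
Mest internal start, chr6:30737800-30738099, plus strand: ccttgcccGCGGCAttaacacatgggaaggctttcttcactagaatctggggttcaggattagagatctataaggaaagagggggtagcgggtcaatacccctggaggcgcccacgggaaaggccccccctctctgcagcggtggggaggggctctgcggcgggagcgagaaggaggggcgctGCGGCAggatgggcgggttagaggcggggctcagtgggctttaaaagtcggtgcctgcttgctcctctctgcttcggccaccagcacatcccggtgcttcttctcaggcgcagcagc
Grb10 internal start, chr11:12027922-12028221, minus strand: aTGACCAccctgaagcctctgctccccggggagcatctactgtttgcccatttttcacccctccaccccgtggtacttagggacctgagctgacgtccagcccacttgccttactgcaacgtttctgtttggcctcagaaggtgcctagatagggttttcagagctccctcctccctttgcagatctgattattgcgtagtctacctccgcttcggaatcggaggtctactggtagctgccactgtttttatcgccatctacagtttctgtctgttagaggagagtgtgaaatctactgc
Igf2 outermost start, chr7:142666767-142667066, minus strand: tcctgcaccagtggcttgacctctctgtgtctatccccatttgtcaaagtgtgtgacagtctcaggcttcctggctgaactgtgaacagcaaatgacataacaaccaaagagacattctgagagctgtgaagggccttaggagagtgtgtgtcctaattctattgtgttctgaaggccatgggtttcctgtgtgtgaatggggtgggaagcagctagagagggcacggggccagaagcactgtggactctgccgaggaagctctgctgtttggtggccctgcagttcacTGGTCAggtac
Plagl1 start, chr10:13090582-13090881, plus strand: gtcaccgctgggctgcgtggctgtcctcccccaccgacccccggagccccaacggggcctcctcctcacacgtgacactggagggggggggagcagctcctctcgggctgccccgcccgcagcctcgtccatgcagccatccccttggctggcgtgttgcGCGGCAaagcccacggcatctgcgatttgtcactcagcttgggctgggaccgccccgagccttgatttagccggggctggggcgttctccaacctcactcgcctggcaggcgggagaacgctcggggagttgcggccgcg
Ltv1 start, chr10:13193088-13193387, minus strand: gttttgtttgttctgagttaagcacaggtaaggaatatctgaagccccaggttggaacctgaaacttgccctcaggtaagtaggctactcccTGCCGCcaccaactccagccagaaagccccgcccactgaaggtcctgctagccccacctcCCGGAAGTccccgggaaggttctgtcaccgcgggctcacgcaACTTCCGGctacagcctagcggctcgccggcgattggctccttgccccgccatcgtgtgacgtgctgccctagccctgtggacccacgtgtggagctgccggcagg
The Mest window holds 2 matches of the ZFP57 letters and lies 419 bp from a reproducible region. The Grb10 window opens with a BCL11A match and lies 1757 bp from one. The Igf2 window has 1 BCL11A match near its end and is touched by a peak of library 3 only. The Plagl1 window, with 26 CpG and 1 ZFP57 match, lies 81680 bp from the nearest reproducible region. The Ltv1 window, with 2 ETS matches and 1 ZFP57 match, is overlapped by a peak of all 3 libraries. A match of letters is no evidence of binding.

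Signal at the outer ends of these genes was scarce. Within 1 kb of an end, 1 of the 10 genes had such a region, Igf2, against 45.2% of all 21887 protein-coding genes and 17.8% of 12727 lncRNA genes (8 members are protein-coding, and H19 and Meg3 are lncRNAs). The edge of the Igf2 region lay 924 bp from the gene, and the next closest, at H19, lay 2011 bp away. Counting peaks of single libraries, 7 of the 10 genes had no peak of any library at an end, H19 had one of library 3, Dlk1 had peaks of libraries 2 and 3, and Igf2 had peaks of all 3. The share of all genes without a peak of any library at an end is not given, so the 7 has no background beside it. Without library 1, Dlk1 joined Igf2 and the count was 2, against 48.8% of protein-coding genes under the same setting. With internal starts included, 2 members had a reproducible region within 1 kb of an annotated start, Igf2 and Mest, against 46.9% of protein-coding genes with a listed start. H19 has no listed start and could not be counted here, and the lncRNA Meg3 lies outside that background. Members and lists were compared with all genes by counts alone, with no test.

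**Figure D1:**
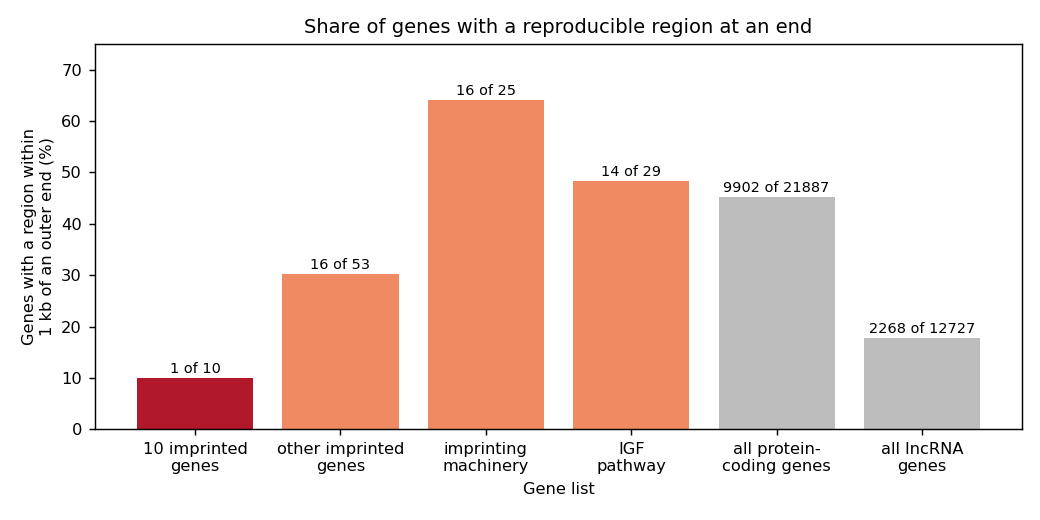
Share of genes (%) with a reproducible region within 1 kb of an outer end, for the 10 imprinted genes, other imprinted genes, genes of the imprinting machinery, IGF pathway genes, all protein-coding genes and all lncRNA genes, with counts above the bars. The imprinted genes stand at 10%, against 45.2% of protein-coding genes and 17.8% of lncRNA genes.

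Counting whole windows, the members had slightly fewer regions per Mb than protein-coding genes with all deposited peaks. Under stricter settings the member windows lost a larger part of their regions than the genome-wide list did. A window reached from 100 kb below a gene to 100 kb above it. The 10 windows together covered 2.09 Mb with 21 reproducible regions, 10.1 per Mb, against 11.6 per Mb in the windows of all protein-coding genes. A member window held a median of 3 regions, against a median of 4 (quartiles 1 and 8) for protein-coding genes and 2 for lncRNA genes. Without library 1 the median of the members was 5, while the regions over the genome rose from 22987 to 27270. The median of protein-coding genes under that setting is not given, so the 5 cannot be set against the 4. Igf2r had the most, 5, and 63.5% of protein-coding genes had as many or fewer. H19, Meg3 and Dlk1 had 4 each, Mest and Grb10 3 each, Igf2 and Plagl1 2 each, and Ndn and Peg3 had 0, counting regions shared by overlapping windows for each gene. At least 1 reproducible region was found in the window of 8 of the 10 members, against 79.3% of protein-coding genes.

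**Figure D2:**
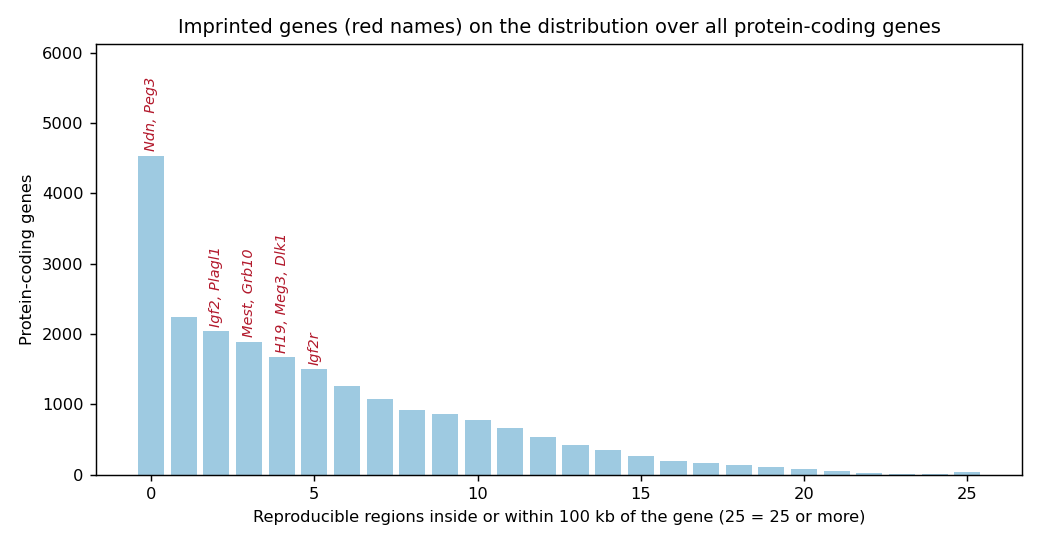
Bars count protein-coding genes (vertical axis) by the number of reproducible regions inside or within 100 kb of the gene (horizontal axis, 25 stands for 25 or more), and red names place the 10 imprinted genes. All 10 lie between 0 and 5 regions, where the median of protein-coding genes is 4.

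**Figure D3:**
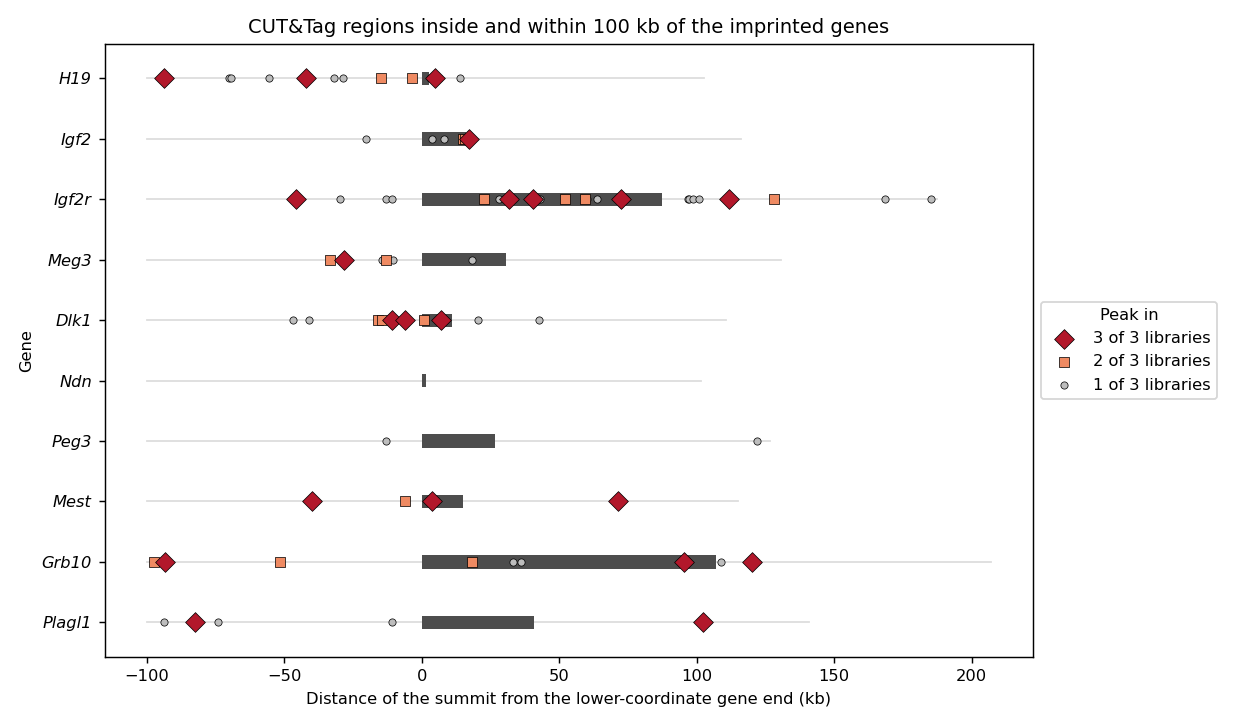
Regions around each of the 10 genes, placed by the distance of their summit from the lower-coordinate gene end (kb). Dark bars are the genes, grey lines the windows, red diamonds regions with a peak of all 3 libraries, orange squares of 2 and grey circles of 1; Igf2r, Dlk1, Mest and Grb10 have diamonds inside the gene, H19 and Igf2 just beyond it, and Ndn and Peg3 none.

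Igf2, the paternally expressed growth factor gene, and H19, the maternally expressed RNA next to it, share a control region a short way upstream of the H19 start. H19 (chromosome 7, 142575530 to 142578146) is known to be read from its higher-coordinate end. A reproducible region lay 2356 bp beyond that end (142580157 to 142580759), in the intergenic stretch toward Igf2. Its fold enrichment, the caller's ratio of summit signal to local background as deposited by the authors, was 4.18, 3.95 and 4.87 in libraries 1, 2 and 3 (4.33 ± 0.48, SD, n = 3), from summit pileups of 10, 11 and 19 fragments. Library 3 was highest on both measures. Divided by the background of each library, the pileups were 9.37, 7.82 and 9.76 times, with libraries 1 and 3 close together. Library 3 alone had further peaks 327, 3699 and 11151 bp beyond the same end, with fold enrichments of 5.08, 3.69 and 3.73. On the other side of H19, libraries 2 and 3 shared a region 3.33 to 3.39 kb below the lower end, with 5.08 and 4.01, where library 1 had no peak. The farthest region given to H19 lay 93828 bp below it, inside Lsp1, an actin-binding protein gene of white blood cells (142481575 to 142482207), with 5.33, 4.62 and 3.57 (4.51 ± 0.88, SD, n = 3), lowest in library 3.

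The region of Igf2 (chromosome 7, 142650768 to 142666816) lay just outside its higher-coordinate end, where its outermost promoter sits. It spanned 142667740 to 142668285, inside the antisense gene Igf2os, with fold enrichments of 3.97, 4.46 and 4.49 and pileups of 9, 12 and 18 fragments in libraries 1, 2 and 3. The values were close together, with a mean of 4.31 ± 0.29 (SD, n = 3). Inside the gene no region was shared by all 3 libraries. Libraries 1 and 3 overlapped just inside the outermost start with 4.0 and 2.96, where the library 3 peak alone reached the start, libraries 2 and 3 about 1 kb inside it with 3.73 and 3.36, and library 1 alone had a peak at the CpG-rich start at 142658804, with 4.56. Each of these peaks rested on 9 to 14 fragments at its summit. Library 3 alone had a further peak inside the gene, 3704 bp from the lower-coordinate end (142654361 to 142654622), with 4.14 from 15 fragments.

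Igf2r (chromosome 17, 12682406 to 12769706) encodes the receptor that carries Igf2 to the lysosome, and is silenced on the paternal copy through Airn, an RNA read the other way from a start inside Igf2r. It had 5 reproducible regions, more than any other member, 3 of them inside the gene. The strongest lay 24361 bp beyond its start, inside Airn (12793869 to 12794372), with 7.07, 6.95 and 6.49 in libraries 1, 2 and 3 (6.84 ± 0.31, SD, n = 3). The libraries were close together. The region 14943 bp inside the start (12754456 to 12755704), which Airn also spans, had 7.57, 6.02 and 5.28 (6.29 ± 1.17, SD, n = 3) and pileups of 27, 27 and 27 fragments. The pileups were equal while the ratio was highest in library 1 and lowest in library 3. The other 2 intragenic regions, at 12713948 to 12714594 and 12722713 to 12722988, had 5.16 ± 1.28 and 4.76 ± 0.93, and one toward Slc22a2, an organic cation transporter gene of the cluster, had 5.82 ± 1.5 (12636055 to 12637077, SD, n = 3). The CpG-rich Igf2r promoter window, with 34 CpG, held no peak of any library. At the Airn start, within 1 kb, libraries 2 and 3 shared a weak region (2.92 and 4.13) that library 1 lacked.

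Dlk1 and Meg3 lie in one cluster with an intergenic control region between them. Dlk1 (chromosome 12, 109452485 to 109463336) encodes a paternally expressed transmembrane protein related to Notch ligands and had 3 reproducible regions, each nearest to Dlk1 among all genes. One lay inside the gene (109459326 to 109460150), with 4.83, 5.04 and 4.04 (4.63 ± 0.53, SD, n = 3). Others lay 10837 bp below it (109441384 to 109441860), with 4.10, 3.98 and 3.68, and 6107 bp below it (109446097 to 109446670), with 3.77, 4.24 and 2.65. The last was the weakest of the 21 regions, at 3.55 ± 0.81 (SD, n = 3). The region at 109441384 had pileups of 19, 27 and 30 fragments, above those of the region inside Dlk1 at 11, 16 and 15, although its ratio was lower. At the Dlk1 start, and reaching into the gene, libraries 2 and 3 shared a region, with 3.46 and 3.25, where library 1 had no peak.

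Meg3 (chromosome 12, 109540996 to 109571729), the maternally expressed noncoding RNA, was given 1 reproducible region, 28247 bp below its start (109512200 to 109512956). It had 4.65, 4.86 and 3.73 (4.41 ± 0.60, SD, n = 3), and the nearest end of any gene was that of the lncRNA Gm34017, 740 bp away. Both annotated Meg3 starts were free of peaks in all 3 libraries. In the intergenic stretch nearer to Meg3 every library had a peak, but not at one place: library 1 at 12730 bp, library 2 at 13228 bp and library 3 at 14274 bp below the start, with 4.24, 3.21 and 3.27. Library 3 had a further peak closer to Meg3, 10596 bp below the start, with 3.45. The peaks of libraries 1 and 2 overlapped and neither library 3 peak reached them, so this site is not counted as reproducible. Inside Meg3 only library 3 had a peak, with 3.73.

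Mest and Grb10 carried a reproducible region inside the gene near an internal start, not at the outer one. Mest (chromosome 6, 30733506 to 30748466) encodes a paternally expressed protein with a hydrolase fold, and its imprinted promoter is an internal one. The region at 30736887 to 30737381 had its summit 939 bp before the start at 30738050 and its edge 669 bp before it. Fold enrichment was 4.35, 7.10 and 4.41 in libraries 1, 2 and 3 (5.29 ± 1.57, SD, n = 3), with pileups of 8, 18 and 12 fragments, so library 2 stood above the others. A further region, at 30804497 to 30805072 inside the coat protein gene Copg2, had 4.84, 7.48 and 7.47 (6.59 ± 1.52, SD, n = 3), with library 1 lowest.

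Grb10 (chromosome 11, 11930499 to 12037428) encodes an adaptor that dampens insulin and IGF receptor signalling, with different promoters on the maternal and paternal copies. Its intragenic region (12025673 to 12026165) lay 2145 bp downstream of the internal start at 12027971. The fold enrichment was 5.07, 3.58 and 3.73 (4.13 ± 0.82, SD, n = 3), from 10, 8 and 10 fragments, the fewest of any member region by mean pileup over background (6.73 ± 2.30 times, SD, n = 3). Library 3 had an extra peak closer to that start, 1309 bp from it, with 4.07. The outer Grb10 promoter window, with 45 CpG the richest of the members, held no peak. A stronger region lay 13305 bp beyond the gene (12050290 to 12051034), with 6.97, 6.26 and 5.07 (6.10 ± 0.96, SD, n = 3) and summits within 3 bp of one another in the 3 libraries. The farthest, 93463 bp below the gene and inside Ddc, the gene of an enzyme that makes dopamine (11836645 to 11837259), had 6.56, 5.35 and 4.97 (5.63 ± 0.83, SD, n = 3).

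Plagl1, a paternally expressed zinc finger gene whose product can arrest the cell cycle, had its reproducible regions at the ends of other genes. The gene (chromosome 10, 13090832 to 13131694) held no peak of any library inside it. The strongest of all 21 regions was in its window, 61329 bp beyond its end, over the start of Ltv1 (13192743 to 13193424), a gene of ribosome assembly known from yeast. It had 9.67, 9.10 and 10.78 in libraries 1, 2 and 3 (9.85 ± 0.85, SD, n = 3), above 87.3% of all reproducible regions. The other lay at the end of Sf3b5, a splicing factor gene (13008071 to 13008902), with 5.32, 5.52 and 6.11 (5.65 ± 0.41, SD, n = 3).

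Ndn and Peg3 stood without reproducible signal. Ndn (chromosome 7, 62348277 to 62349928) encodes necdin, a growth suppressor and p53 target linked to stem cell quiescence, and no library had a peak inside it or within 100 kb. The nearest reproducible region lay 1466297 bp away. Peg3 (chromosome 7, 6703892 to 6730462), a paternally expressed zinc finger gene, had 2 peaks of library 1 alone, 12903 bp below it and 95355 bp above it, with fold enrichments of 4.84 and 3.87 and pileups of 9 and 7 fragments. Its nearest reproducible region lay 293490 bp away. How well reads can be placed in these stretches was not tested, and a missing peak says only that none passed the caller's threshold at this depth.

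Many of the 21 regions lay closer to an outer end of a neighbour than to an outer end of a member. When each was given to the nearest outer end of any annotated gene, 9 stayed with a member: 3 with Dlk1, 2 with Mest and 1 each with H19, Igf2, Igf2r and Grb10. Meg3 and Plagl1 then kept 0. Without library 1 the count was 14. Of the 12 that went elsewhere, 3 went to Airn and 1 each to Gm13782, Gm30423, Gm34017, Gm51937, Ltv1, Mrpl23, Prr33, Sf3b5 and Slc22a2. Distance to an outer end is not the same as position in a gene. The 3 regions given to Airn had their summits inside Igf2r. The region that stayed with Igf2r lay outside it, inside Airn, and 1 that stayed with Mest lay inside Copg2. Regions that stayed had a median fold enrichment of 4.33, and those that went elsewhere 5.74. Promoter windows of other genes were overlapped by 3 of the regions, those of Ltv1, Mrpl23 and Cep41, named after their values were seen. Mrpl23, a mitochondrial ribosomal protein gene below H19, had 8.49, 6.89 and 5.12 in libraries 1, 2 and 3 (6.83 ± 1.69, SD, n = 3; 142532403 to 142533836), lowest in library 3. The Cep41 region, 39786 bp below Mest, had 6.92, 6.99 and 9.78 (7.90 ± 1.63, SD, n = 3; 30693194 to 30693981), highest in library 3, at a start of a centrosomal protein gene.

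**Figure D4:**
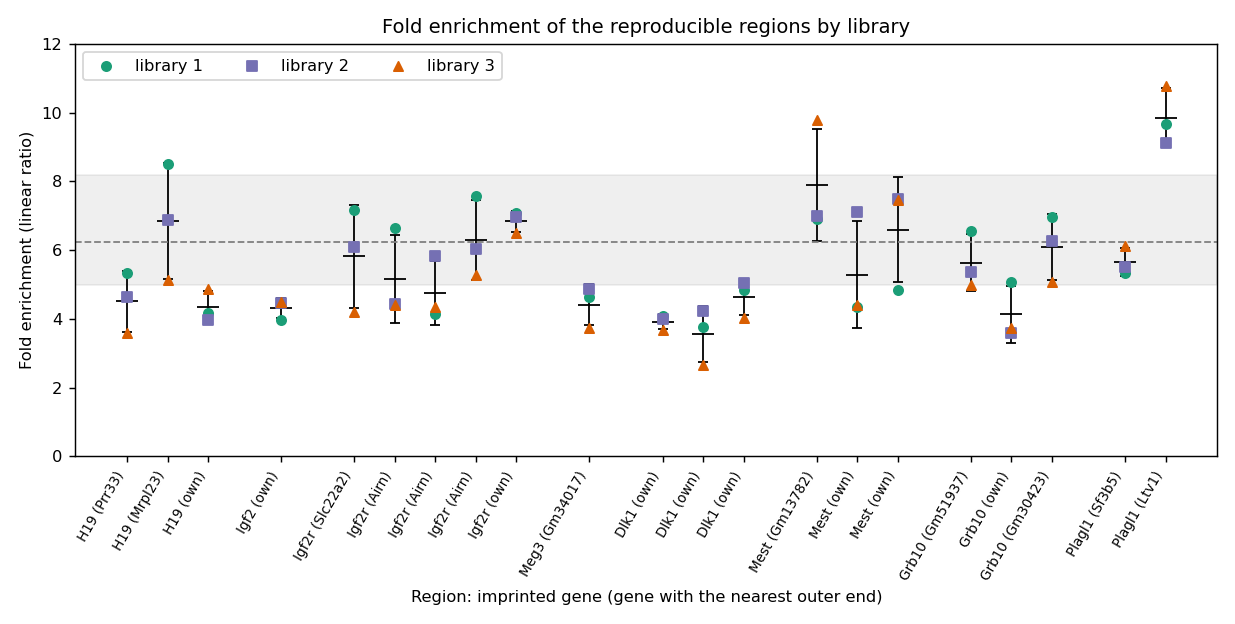
Fold enrichment (linear ratio) of the 21 reproducible regions, with the gene whose outer end is nearest in brackets (own for the imprinted gene itself); points are the 3 libraries, black bars the mean ± SD, and the dashed line and grey band the median and quartiles of all reproducible regions. Most regions lie below the dashed line at 6.25, and the region at Ltv1 in the Plagl1 window is the highest at 9.85.

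The member regions were mostly weaker than the median reproducible region. Their median fold enrichment was 5.29, against 6.25 (quartiles 4.98 and 8.18) over all 22987, and 6 of the 21 exceeded that median. The 3 that overlapped a promoter window of another gene had a median of 7.9. The whole list was not matched to the 21 for distance to promoters, and the part of position in the difference was not tested. Summit pileup over library background, a measure less bound by the local ratio, had a median of 12.4 times, against 17.7 times overall. The median width was 633 bp, against 752 bp. Summit pileups of member regions were 8 to 39 fragments, so counting error is large at each. The highest ratio was in library 1 for 10 regions, in library 2 for 6 and in library 3 for 5, while the background behind the ratios was 1.07, 1.41 and 1.95 fragments per base, and the part of depth in this was not tested. Of the peaks in the windows, 53.8%, 50% and 36.2% in libraries 1, 2 and 3 fell in reproducible regions, against 62.4%, 64.1% and 53.8% of all peaks. Library 3 supplied 23 of the 42 regions found in 1 library. At the 100 kb limit, a region with its edge 99136 bp from Meg3 was just inside (3.92 ± 0.22), though it went to Dlk1, and one 103313 bp from Plagl1 was just outside (5.35 ± 0.45, SD, n = 3). With −log10 q of at least 5 the windows kept 11 of the 21 regions, against 16722 of 22987 over the genome. With 50% reciprocal overlap they kept 10, against 15809, and with each library limited to its 10000 strongest peaks they kept 1, at Ltv1, against 7210.

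Promoters of the members held more CpG than most promoters and no reproducible signal. RefSeq lists 16 start windows for 9 members, and none for H19. Their median was 13 CpG per 300 bases, against 7 over all 32851 windows, and 8 of the 16 had an observed over expected CpG ratio of at least 0.6 (50%), against 35.8% of all windows. A reproducible region overlapped 0 of the 16 windows, against 31.4% of all windows, 68.8% of CpG-rich windows and 10.5% of the others. Peaks of a single library touched 3 of them, at Dlk1 and at 2 Igf2 starts. Windows of one gene overlap or neighbour each other, so the 16 are not independent.

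Of the motifs searched on both strands, the ZFP57 letters TGCCGC were found in 6 of the 16 member windows, those of Grb10, Igf2, Meg3, Plagl1 and 2 overlapping ones of Mest. They occur in 11.6% of all windows. Among CpG-rich windows they were in 5 of the 8 of members, against 24.3% of all. Of these, Meg3 at 0.602 and a Mest window at 0.605 passed the limit of 0.6 narrowly, and an overlapping Mest window at 0.59 did not. The BCL11A letters TGACCA were in 4 windows (2 of Igf2, 1 of Grb10 and 1 of Meg3), against 13.6% of all. The RUNX letters TGTGGT were in 2 windows (Dlk1 and Meg3), against 16.8%. The letters AGATAA of blood factors such as Gata2 were in 0 windows, against 11.2% of all. The ETS letters above were in 0, against 3.89%. The letters AAGATGGC of the zinc finger factor Yy1 were in 0, against 2.75%, and a longer CTCF motif, rare in promoters, in 0, against 0.0365%. In the 8 CpG-rich member windows the BCL11A and RUNX letters were in 1 each, against 9.26% and 9.72% of all CpG-rich windows. The AGATAA, ETS, Yy1 and CTCF letters were in 0 of them, against 4.45%, 8.55%, 4.85% and 0.0765%.

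Occupied ends of other imprinted genes differed in number between clusters. Whether each of these genes is imprinted in LSK cells was not tested. Of 53 further imprinted genes, 16 (30.2%) had a reproducible region at an end, against 45.2% of protein-coding genes. Of the 20 genes that share a cluster with a member, 3 had one: Ube3a, a ubiquitin ligase gene beyond Ndn (12.8 ± 1.24), Copg2 next to Mest (8.57 ± 1.5) and the transporter gene Slc22a3 next to Igf2r (6.20 ± 0.10, SD, n = 3). The ends of 14 of those 20 were free of peaks in all libraries, among them Th and Ins2 next to Igf2, Rtl1, Rian and Dio3 beyond Meg3, Magel2, Mkrn3, Snrpn and Snurf near Ndn, and Zim1 and Usp29 beside Peg3. Of 10 genes in the Kcnq1 domain, which adjoins the H19 and Igf2 cluster on chromosome 7, 8 had one. Its growth suppressor Cdkn1c, a cell cycle inhibitor of quiescent stem cells, had 4.73 ± 0.25, its silencing RNA Kcnq1ot1 7.17 ± 1.36, the histone chaperone gene Nap1l4 11.6 ± 0.55, and Tssc4 and Cd81 shared a region with 10.5 ± 0.48 (SD, n = 3). The remaining 23 imprinted genes had 5 occupied, with Inpp5f, a phosphoinositide phosphatase gene, at 11.2 ± 0.91, Blcap at 8.47 ± 0.71 and Trappc9, of a vesicle tethering complex, at 8.07 ± 1.49 (SD, n = 3). The others were Peg13 and Zrsr1. The ends of 12 of these 23 genes, and of 0 of the 10 Kcnq1 domain genes, were free of peaks in all libraries. The share of all genes with such bare ends is not given, so the 14 of 20 above has no genome-wide background. Windows of the 10 Kcnq1 domain genes held 6 to 21 reproducible regions each, against 0 to 5 for the 20 genes sharing a cluster with a member. The part of this density in the counts at an end was not tested.

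Of 25 genes that write and read imprints, 16 (64%) had a reproducible region at an end, against 45.2% of protein-coding genes. With 50% reciprocal overlap 9 of the 25 had one, against 34% of protein-coding genes, so the distance from the background depended on how overlap was set. Kdm1b, a histone demethylase gene needed for imprints in the egg, had 12.03 ± 2.32, Smchd1, a chromatin repressor gene, 10.6 ± 1.25 and Ctcf 10.6 ± 0.97. The cohesin gene Smc3 had 10.35 ± 0.66 and Yy1 10.3 ± 0.75 (SD, n = 3). Zfp57 had 7.67 ± 1.04 and its partner Trim28 8.32 ± 0.47 (SD, n = 3). Dnmt3a and Rad21 had no peak of any library at an outer end, though Dnmt3a had 11 reproducible regions inside or within 100 kb.

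Partners of Igf2 and Grb10 in IGF signalling had a region at an end in 14 of 29 cases (48.3%), against 45.2% of protein-coding genes, and with 50% reciprocal overlap in 9, against 34%. The regulatory PI3K subunit gene Pik3r1 had 11.5 ± 0.72, the insulin receptor gene Insr 10 ± 1.30, the adaptor gene Shc1 9.68 ± 1.68, the kinase gene Akt2 9.09 ± 0.77 and the catalytic PI3K subunit gene Pik3ca 8.25 ± 1.39 (SD, n = 3). The receptor gene Igf1r had 6.21 ± 1.49 (SD, n = 3). The ligand and binding protein genes of the list were set apart after their values were seen. Among them, Ins1, Ins2, Igfbp2, Igfbp3, Igfbp5 and Igfbp6 had no peak of any library at an end. Igf1 and Igfbp7 had peaks of 2 libraries there and Igfbp1 of 1. Igfbp4 had a reproducible region there, at 4.65 ± 0.76 (SD, n = 3). The share of all genes without a peak of any library is not given, and the list as a whole stood near the protein-coding share.

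Expression was not measured in these libraries, so the sort could not be checked by its markers directly. Of the genes behind the LSK gate, Kit had a reproducible region at an end (5.89 ± 0.26, SD, n = 3), and Ly6a, which encodes Sca-1, had a peak of 1 library there and 10 reproducible regions within 100 kb. An end was occupied in 2 of 10 lineage marker genes (Cd79a and Nkg7) and 3 of 14 stroma and endothelium genes (Kdr, Pdgfrb and Sp7), 20% and 21.4%, against 45.2% of protein-coding genes. The part of such cells in the signal at the members was not tested.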

How the data were processed

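The submitters' processing notes name Bowtie2, SAMtools, MACS2 and the mm10 build, without versions, for the 3 CUT&Tag libraries, each with its own peak list. Use of a control and removal of duplicates are not stated in the labels. By column order, the deposited lists contain a score (10 times −log10 q without decimals, not used), a fold enrichment (a linear ratio), −log10 p, −log10 q and the summit position. The lowest deposited −log10 q was 1.30 to 1.31, a q-value threshold of 0.05.

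Peaks on autosomes, X and Y sharing at least 1 bp were merged, and a region was reproducible when all 3 libraries contributed. The strongest peak of a library gave its value. Summit pileup and background were solved from fold enrichment (pileup plus 1 over background plus 1) and −log10 p (a Poisson tail), and 100% of pileups came out whole within 0.05 of a fragment. The lowest background of a library is its library background. Genes and promoter windows came from RefSeq tables of GRCm38.p6. The gene table gives outer ends without strand, and the promoter table gives strand and starts. A region goes to the gene whose outer end is nearest to its mean summit. Intervals for single counts were not computed, since fragments may hold duplicates.

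The design holds 1 group, so no comparison between groups and no significance test was made. Shares over all genes are given as background. Members and lists were chosen with earlier results of these data known. The named genes were all members, the genes nearest to a member region, the 8 strongest and the cluster neighbours among other imprinted genes, the 5 strongest of the machinery and IGF lists, and Bcl11a, Kit and Ly6a, of which Bcl11a is not described here. Regions were named singly up to 20, and 1 more at Igf2r was added after its values were seen, as were genes named for lacking a peak, Zfp57, Trim28, Dnmt3a, Igf1r, Igf1, Igfbp1, Igfbp4, Igfbp7, Peg13, Zrsr1 and the single marker genes. The CpG classes were chosen after seeing the data. Alternatives changed the libraries, the peak threshold, the overlap, the window and the distance to an end. Python 3.11.15, pandas 2.3.3, numpy 2.4.6 and scipy 1.17.1 were used, and the steps were tested on simulated data. Of the other imprinted genes, 1 of 54, Nespas, is not in the gene table under that symbol and was not analysed here.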

Additional observations from a re-analysis of the deposited data

How the results depend on the processing

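No paired analysis was possible because all 3 libraries belong to 1 group. With 1 library left out in turn, reproducible regions in the windows numbered 24 to 31 (main value 21). Members with a region at an end numbered 1 to 2 (1), against 46.2% to 48.8% of protein-coding genes (45.2%). Regions nearest to their member numbered 10 to 14 (9). Regions per window had a median of 3 to 5 (3), and the median fold enrichment was 4.45 to 5.20 (5.29). The highest counts came without library 1 and the lowest median enrichment without library 2. A region in 2 of 3 libraries gave 38 regions, 2 members at an end, 17 nearest, a median of 6 per window and a median enrichment of 4.62, while 51.6% of protein-coding genes had a region at an end. With −log10 q of at least 5 these were 11 regions, 0 members, 2 nearest and 6.10, against 38.1% of protein-coding genes. With the 10000 strongest peaks they were 1, 0, 0, a median of 0 per window and 9.85, and the other imprinted, machinery and IGF lists had 7, 9 and 8 occupied genes, against 20.6% of protein-coding genes. With 50% reciprocal overlap they were 10, 0, 3 and 1.5 per window, and machinery and IGF genes had 9 each (of 25 and 29), against 34% of protein-coding genes. Windows of 50 kb gave a median of 1.5 regions and windows of 200 kb gave 5.5, with 44 regions in all. Members with a region at an end numbered 0 within 250 bp (against 40.7% of protein-coding genes), 2 within 3 kb (50.8%) and 2 with any annotated start, and 14 regions stayed with a member when only protein-coding genes competed. Fewer libraries or peaks change these counts by construction. Window medians of protein-coding genes under these alternatives are not given, so those of the members have no background beside them. Ndn and Peg3 had 0 regions under every choice of libraries, threshold and overlap. Summit pileups of 8 to 39 fragments limit the precision of each region.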
